A study of Caenorhabditis elegans with 8 samples.

Results

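The 2 libraries of batch 1 (1 DEET and 1 DMSO) were compared with the 4 libraries of batches 2 and 3 (2 DEET and 2 DMSO), out of 8 libraries in all, over all 15680 genes that passed the count filter of 46244 in the table. Batch is the pair number in the labels, which joins 1 DEET and 1 DMSO sample. The split was chosen on the principal components of the same counts, so the differences between its sides are given as a description. The study took whole Caenorhabditis elegans in late L4, the last larval stage, and held them for 24 hours with the repellent DEET, dissolved in DMSO at 0.1 M, or with the solvent DMSO alone at 0.1%. Every sample, solvent controls included, held 1000 worms of the strain the labels call col-121, after a cuticle collagen gene; no allele or rescue is given, and the labels do not say whether 0.1 M is a stock or a final concentration. The batch 4 libraries were left out of the comparison and their values are set beside it where they are informative. The labels mark the 2 libraries of a batch as a pair, so the comparison is of 1 batch with 2 batches, whatever the number of libraries.

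The nematode cuticle is built mainly of small collagens, encoded by a large gene family that the epidermis transcribes in pulses around each moult, with some members used at all stages and others, such as col-19 and col-7, tied to the adult. Hermaphrodites make sperm in the last larval stage and then switch to oocytes, and the adult intestine makes vitellogenin yolk proteins that growing oocytes take up. Transcripts of cuticle collagens, sperm proteins, oocyte proteins and yolk therefore shift through the hours around the last moult. In bulk RNA of whole worms, fewer cells of a type and less RNA per cell cannot be told apart.

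Batch 1 worms carried more transcript of the cuticle collagens and, to a smaller degree, of sperm and muscle genes than batch 2 and 3 worms. These list differences were present with DEET and with DMSO. The medians of oocyte, germline and yolk transcripts were close to 0, but oocyte genes leaned lower by a small and shared margin. In 28 of 41 oocyte and eggshell genes (68.3%) both batch 1 libraries lay below the other 4, against 16% of all tested genes. Among abundant genes that background was larger, with 539 of the 1743 tested genes over 100 TPM below. Of all tested genes, 160 (1.02%) were called higher in batch 1 and 20 (0.128%) lower, at an adjusted p of 0.05 in edgeR's quasi-likelihood test with treatment as a covariate. Cuticle collagens made up 41 of the 160 genes called higher (25.6%), against 142 of the 15680 tested (0.906%). No cuticle collagen was among the 20 called lower. Among the genes called higher, the log2 fold change ran from 0.22 to 2.38 with a median of 1.03, and 83 were over 2-fold. Among those called lower the size ran from 0.21 to 2.498 with a median of 0.54, and 2 were over 2-fold.

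Without the batch 1 DEET library 3 genes were called higher and 0 lower, and without the batch 1 DMSO library 0 and 0, so the calls need both libraries; the median of the col genes was then 0.96 and 0.85. With counts summed per batch, which leaves 1 residual degree of freedom, 42 genes were called higher and 3 lower. Those called higher included 20 col genes, 3 other cuticle collagens, 2 muscle markers and 0 listed sperm genes.

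**Figure D1:**
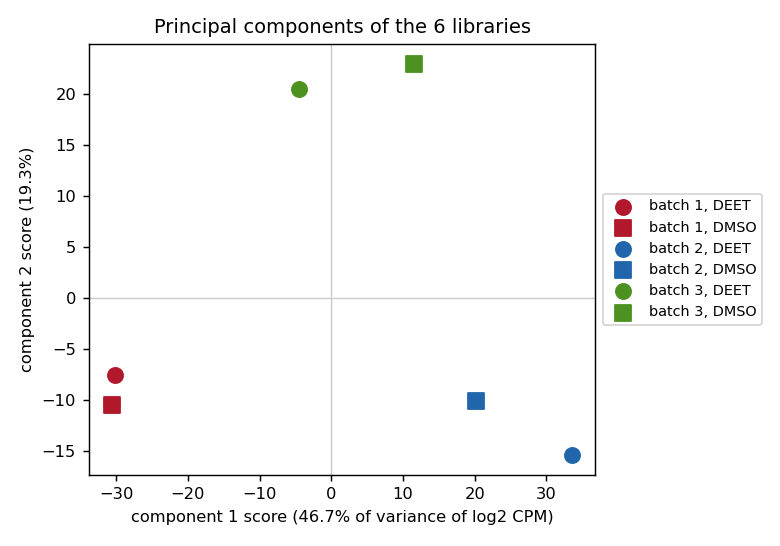
Scores of the 6 libraries on the first (horizontal) and second (vertical) principal components of log2 CPM, with colour for the batch and shape for the treatment. Both batch 1 libraries sit near -30 on the horizontal axis, while the batch 2 libraries sit at 33.6 for DEET and 20.2 for DMSO, with batch 3 between.

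The 6 libraries held 44437681 to 50155299 counts. The first component took 46.7% of the variance, with scores of -30.2 for batch 1 DEET and -30.6 for batch 1 DMSO, against 33.6 and -4.49 for the DEET libraries of batches 2 and 3 and 20.2 and 11.5 for their DMSO libraries. The batch 3 DEET library was thus the nearest to batch 1. The second component, with 19.3%, set batch 3 (20.5 with DEET and 23 with DMSO) against the others. The 2 batch 1 libraries were the closest pair by chi-square per gene, at 7.197. They also had more genes at 10 counts or above, 15470 and 15571, against 14978 to 15253 in batches 2 and 3; the part of this in the results was not tested. Ribosomal RNA was 6.37% and 5.43% of counts in batch 1, inside the range of 3.91% to 8.32% in batches 2 and 3.

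For a single gene, groups are said not to overlap where both batch 1 libraries lay above, or both below, the other 4 in log2 CPM. Over all tested genes, 20.7% lay above in this way and 16% below, and the median log2 fold change was -0.003. These shares are the background for the counts of each gene list, but they vary with level. Genes that lay below were 133 of 2470 under 1 TPM and 415 of 5396 at 1 to 10 TPM. They were 1414 of 6071 at 10 to 100 TPM and 539 of 1743 over 100 TPM.

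Most cuticle collagens were higher in batch 1. Of 122 tested col genes, 35 were called higher and 0 lower, 94 lay above the other 4 libraries and 5 below. Their median log2 fold change was 0.95, a 1.93-fold level, with 0.87 among the DEET libraries and 0.95 among the DMSO libraries. Between batches 2 and 3 the median difference was 0.10. The median was 0.83 against batch 2 alone and 0.92 against batch 3 alone. In 111 of the 122 the fold change was positive, 59 were over 1 on the log2 scale and 2 were under -1. Summed over the col genes, the level was 18400 TPM with DEET and 18200 TPM with DMSO in batch 1, and 14180 to 16190 TPM in batches 2 and 3. The list of 20 other cuticle collagens, named for the body shape of their mutants, had 6 called higher and 0 lower, 13 above and 2 below, and a median of 1.09.

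**Figure D2:**
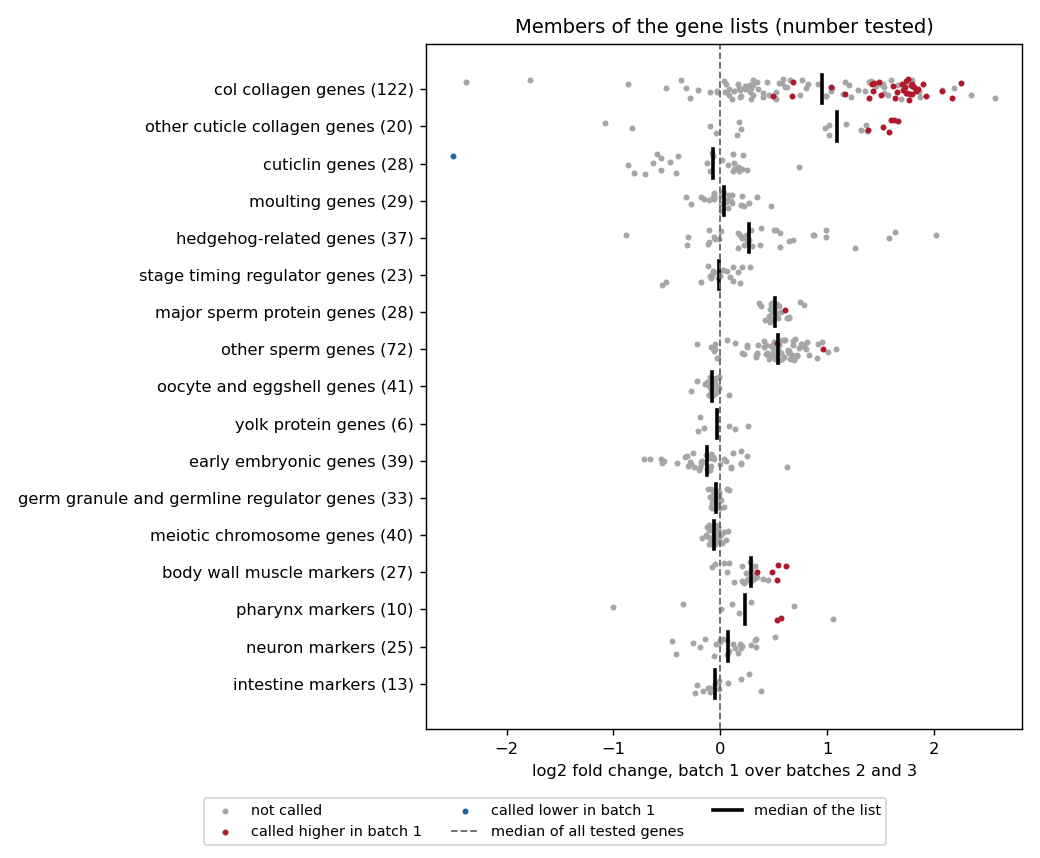
Log2 fold change of each tested gene (points, horizontal axis) in 17 gene lists (rows), with the median of each list as a black bar and that of all tested genes as a dashed line. The collagen lists reach medians of 0.95 and 1.09 and the sperm lists 0.51 and 0.53, while oocyte, yolk, meiotic and intestine lists sit within 0.1 of zero.

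The gene col-12 (chromosome V, 10423898 to 10425198, WBcel235), a cuticle collagen, was the most abundant of the leading genes. Its level was 42.7 TPM with DEET and 36.2 TPM with DMSO in batch 1, against 8.48 and 12.4 TPM with DEET and 8.78 and 7.91 TPM with DMSO in batches 2 and 3. The groups did not overlap, which the naming rule given under processing required: the lower batch 1 library stood above the highest of the other 4. The mean of 39.4 TPM in batch 1 (n = 2) compared with 9.39 ± 2.02 TPM in batches 2 and 3 (SD, n = 4), a 4.22-fold difference.

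The collagen col-65 (chromosome I, 11489158 to 11490578) had 3.93 TPM with DEET and 5.51 TPM with DMSO in batch 1, against 0.86 to 1.12 TPM in batches 2 and 3, a log2 fold change of 2.25. The collagen col-168 (chromosome X, 6326388 to 6327293) had 3.05 and 3.80 TPM in batch 1, against 0.40 to 1.01 TPM, a log2 fold change of 2.17. For col-168, batches 2 and 3 themselves differed by 0.91 on the log2 scale. In both genes the batch 1 libraries were the highest of the 6, again as the naming rule required.

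The adult-linked collagens differed in size of effect. The gene col-7 had 7.42 TPM with DEET and 8.21 TPM with DMSO in batch 1. In batches 2 and 3 it had 0.61 and 2.59 TPM with DEET and 1.07 and 1.09 TPM with DMSO. The log2 fold change of 2.57 was the largest of the named genes, the difference of batch 2 from batch 3 was -1.02, and col-7 was not called. The gene col-19, the standard adult collagen marker, was already high, at 720 and 699 TPM in batch 1 and 517 to 605 TPM in batches 2 and 3. Its log2 fold change was 0.34, the groups did not overlap, and it was not called. Both genes were thus detected in all 6 libraries, and col-19 was at 517 TPM or more in each.

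The genes dpy-5, dpy-13 and rol-6, whose mutants are short or helically twisted, lay close to 3-fold higher in batch 1. The level of dpy-5 was 15.18 and 17.02 TPM in batch 1, against 5.77 and 3.94 TPM with DEET and 6.35 and 4.24 TPM with DMSO. That of dpy-13 was 14.6 and 17.5 TPM, against 4.49 to 5.80 TPM. That of rol-6 was 5.97 and 6.86 TPM, against 1.96 to 2.32 TPM, with differences of 1.51 among DEET and 1.66 among DMSO libraries and 0.20 between batches 2 and 3. The gene bli-1, a strut collagen of the adult cuticle, had 2.08 and 2.78 TPM in batch 1, against 0.79 to 1.57 TPM, and was not called. It lies opposite dph-2, which had a mean of 1804 counts against 273 for bli-1, so its values are uncertain to that extent.

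**Figure D3:**
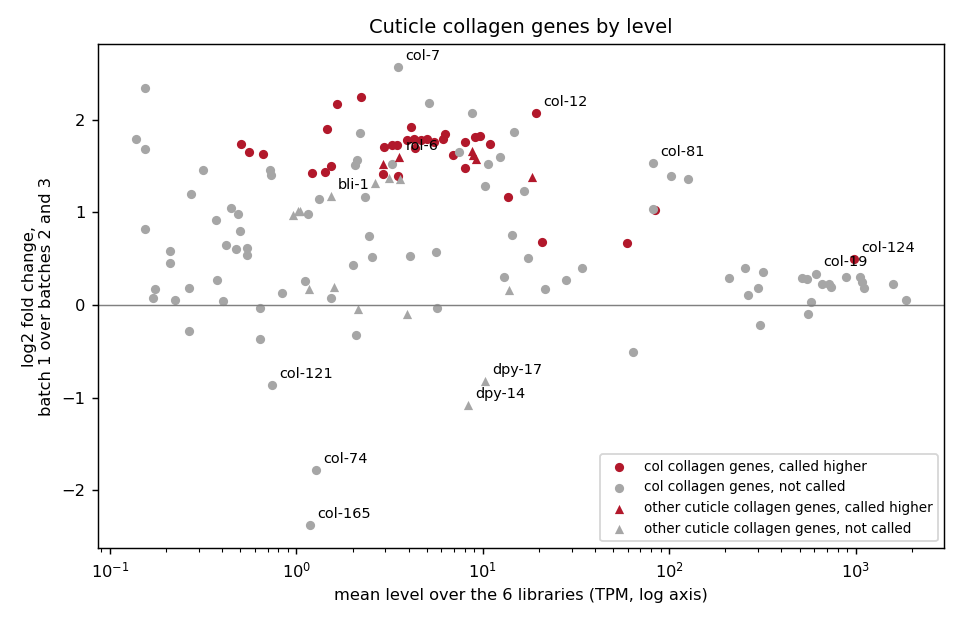
Log2 fold change of batch 1 over batches 2 and 3 (vertical axis) against the mean level over the 6 libraries (TPM, horizontal log axis) for the 142 tested cuticle collagens, circles for col genes and triangles for the others, with called genes in red. Most called genes lie between 1 and 20 TPM at 1.2 or above, the abundant collagens over 100 TPM lie mostly between 0 and 0.5, and 5 labelled collagens lie below -0.8.

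The size of the difference went with the level of the gene. Of the 47 col genes with a mean of 1 to 10 TPM, 40 lay above and 25 were called higher, and the median was 1.62, or 3.07-fold. The 20 col genes at 10 to 100 TPM had a median of 1.03 with 18 above. The 23 col genes over 100 TPM had a median of 0.25, or 1.19-fold, with 19 above and 1 called higher. The 32 under 1 TPM had a median of 0.64, with 17 above. For all tested genes the share above was 24.5% under 1 TPM, 30.7% at 1 to 10 TPM, 12.6% at 10 to 100 TPM and 13.1% over 100 TPM, with medians from -0.04 to 0.17.

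A few collagens went the other way, and were chosen for mention after their values were seen. The gene dpy-14 had 5.75 and 3.88 TPM in batch 1, against 7.51 to 13.2 TPM in batches 2 and 3, and dpy-17 had 7.51 and 6.02 TPM against 8.66 to 14.2 TPM. Both groups of libraries stood apart for each gene, at log2 fold changes of -1.08 and -0.82. The genes col-165 and col-74 were at -2.38 and -1.78. None of the 4 was called. Of the 6 annular furrow collagens, dpy-8 and dpy-9 lay above at 1.01 each, while dpy-2, dpy-3, dpy-7 and dpy-10 overlapped between the groups, from -0.10 to 0.19.

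The col-121 gene, which names the strain, had 0.63 and 0.33 TPM in batch 1, against 0.55 to 1.16 TPM in batches 2 and 3, and the groups overlapped. It lies opposite daf-15, which had a mean of 11640 counts against 43.3 for col-121. The labels do not state whether counting used strand, so the pair may share reads, and whether it does is not known. Of the 41 cuticle collagens called higher, 13 overlap another gene, 12 of them on the opposite strand. In 5 the other gene had more counts. These were col-48 (a mean of 178 counts, opposite mek-2 with 3558), col-79 (63.5, opposite dph-2 with 1804), col-138, col-156 and col-159, the last on the same strand as col-160; their values are uncertain to that extent.

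Other genes tied to the cuticle and its moults lay closer to batches 2 and 3 than the collagens did. Cuticlins, which form a separate insoluble layer, had 0 of 28 called higher and 1 lower, 2 above and 2 below, and a median of -0.07. The called one was cut-3, at 0.34 and 0.45 TPM in batch 1 and 1.85, 1.87, 1.82 and 3.50 TPM in batches 2 and 3 (DEET 2, DEET 3, DMSO 2, DMSO 3). Its log2 fold change of -2.498 was the largest among the genes called lower. It overlaps evl-20 on the opposite strand, which had a mean of 889.7 counts against 71.0 for cut-3. Moulting genes had 0 of 29 called in either direction, 2 above and 0 below, and a median of 0.03; mlt-10 and noah-1 overlapped between the groups.

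Hedgehog-related genes, which in worms encode secreted proteins of the epidermis, had 0 of 37 called in either direction, 14 above and 1 below, and a median of 0.27. The largest was grl-21, chosen after its value was seen, at 6.96 and 6.99 TPM in batch 1 and 0.82 to 3.02 TPM in batches 2 and 3. Genes that time larval stages had 0 of 23 called in either direction, 3 above and 4 below, and a median of -0.01. The transcription factors lin-29, nhr-23 and lin-42, which act in the larval to adult change or the moult cycle, overlapped between the groups. The gene lin-29 lies opposite hmg-12, which had a mean of 15220 counts against 312 for lin-29, so its values are uncertain to that extent. The factor hbl-1 and the RNA-binding protein gene lin-28 were chosen after their values were seen. The level of hbl-1 lay below, at 4.66 and 3.66 TPM against 5.12 to 7.31 TPM, and that of lin-28 at 74.6 and 74.9 TPM against 77.0 to 89.1 TPM; neither was called. The long noncoding RNA lep-5, which is outside this list, was called higher at 0.50 and was named here after its value was seen. These picked genes do not stand for the list, in which 3 lay above and 4 below. Any link among them was not tested.

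Sperm genes were moderately higher in batch 1, with less distance to batch 3 than to batch 2. All 28 tested major sperm protein genes, which encode the sperm cytoskeleton and the signal for oocyte maturation, had a positive fold change and 24 lay above. Their median was 0.51 and 1 was called higher. The median was 0.67 against batch 2 and 0.37 against batch 3. Between batches 2 and 3 it was -0.32, and batch 2 lay below batch 3 in all 28. Their summed level was 1891 TPM with DEET and 1789 TPM with DMSO in batch 1, against 1043 and 1586 TPM with DEET and 1262 and 1269 TPM with DMSO in batches 2 and 3. The batch 3 DEET library came nearest to batch 1. These genes are close copies of each other, so the split of reads among them is uncertain.

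The gene msp-56 had 41.4 and 41.9 TPM in batch 1 and 25.2 to 29.5 TPM in batches 2 and 3, a log2 fold change of 0.61. The gene msp-3 had 34.6 and 28.7 TPM, against 16.5 to 25.3 TPM, and was not called. Other sperm genes had 65 of 72 positive, 46 above and 1 below, with 2 called higher, 0 called lower and a median of 0.53. Here too batch 2 lay below batch 3, by a median of 0.31. The sperm chromatin gene spch-2 had 17.6 and 18.4 TPM in batch 1, against 7.95 and 10.4 TPM with DEET and 9.80 and 8.97 TPM with DMSO. The sperm myosin gene spe-15 had 10.01 and 8.80 TPM, against 5.96 to 7.22 TPM. The sperm phosphatase gene gsp-3 had 15.95 and 16.83 TPM, against 6.71 to 12.3 TPM, and was not called. The sperm fate gene fog-3 had 4.51 and 4.56 TPM, against 3.55 to 3.65 TPM, and the fertilization gene spe-9 overlapped. All 3 sperm calls (msp-56, spch-2 and spe-15) were lost with counts summed per batch, and no sperm gene was called without batch 1 DEET, batch 1 DMSO, batch 2 DMSO or batch 3 DMSO; without batch 3 DEET, 24 genes of the major sperm protein list and 28 of the other sperm list were called higher.

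Oocyte and eggshell genes lay slightly lower in batch 1. Of 41 tested, 0 were called, 0 lay above and 28 below, and the median was -0.08. In 40 of 41 the fold change was negative. Their summed level was 16770 and 17010 TPM in batch 1, against 17550 to 18000 TPM in batches 2 and 3. The oocyte maturation gene oma-1 had 256 and 267 TPM in batch 1, against 269 to 295 TPM. The yolk receptor gene rme-2 and the eggshell chitin synthase gene chs-1 overlapped, at log2 fold changes of -0.01 and -0.04. The eggshell barrier gene perm-2, chosen after its value was seen, was at 893.6 and 907.4 TPM, against 998.2 to 1117 TPM.

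Germ granule genes had 0 of 33 called, 2 above and 12 below, and a median of -0.05, with glh-1 overlapping. Meiotic chromosome genes had 0 of 40 called, 0 above and 13 below, and a median of -0.06. The background share below rose with level, and the counts of these lists were not matched for it. Early embryonic genes had 0 of 39 called, 1 above and 6 below, and a median of -0.12. The embryonic gene pes-10 was at a mean of 0.133 TPM in batch 1 and 0.144 ± 0.119 TPM (SD, n = 4) in batches 2 and 3; its mean was 6.5 counts over the 6 libraries, and no direction is read from it.

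Yolk protein genes showed no shared direction. Of the 6 tested, 0 were called, 0 lay above and 3 below, and the fold changes ran from -0.21 to 0.26. The level of vit-2, which encodes a yolk protein taken up by oocytes, was 4684 and 4944 TPM in batch 1, against 5660 and 5184 TPM with DEET and 6118 and 5333 TPM with DMSO in batches 2 and 3. That of vit-6 was 4689 and 4971 TPM, against 5042 to 6133 TPM. The gene vit-4, chosen after its values were seen, lay higher in batch 1 than in batch 3, at 1344 and 1423 TPM against 946 and 938.7 TPM, but beside batch 2 at 1381 and 1360 TPM. Summed over the list, the level was 14170 and 14990 TPM in batch 1, against 14480 to 17580 TPM in batches 2 and 3. Batch 2 lay above batch 3 by a median of 0.24 over the 6 genes; for vit-2 that difference was 0.17, beside its fold change of -0.21.

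**Figure D4:**
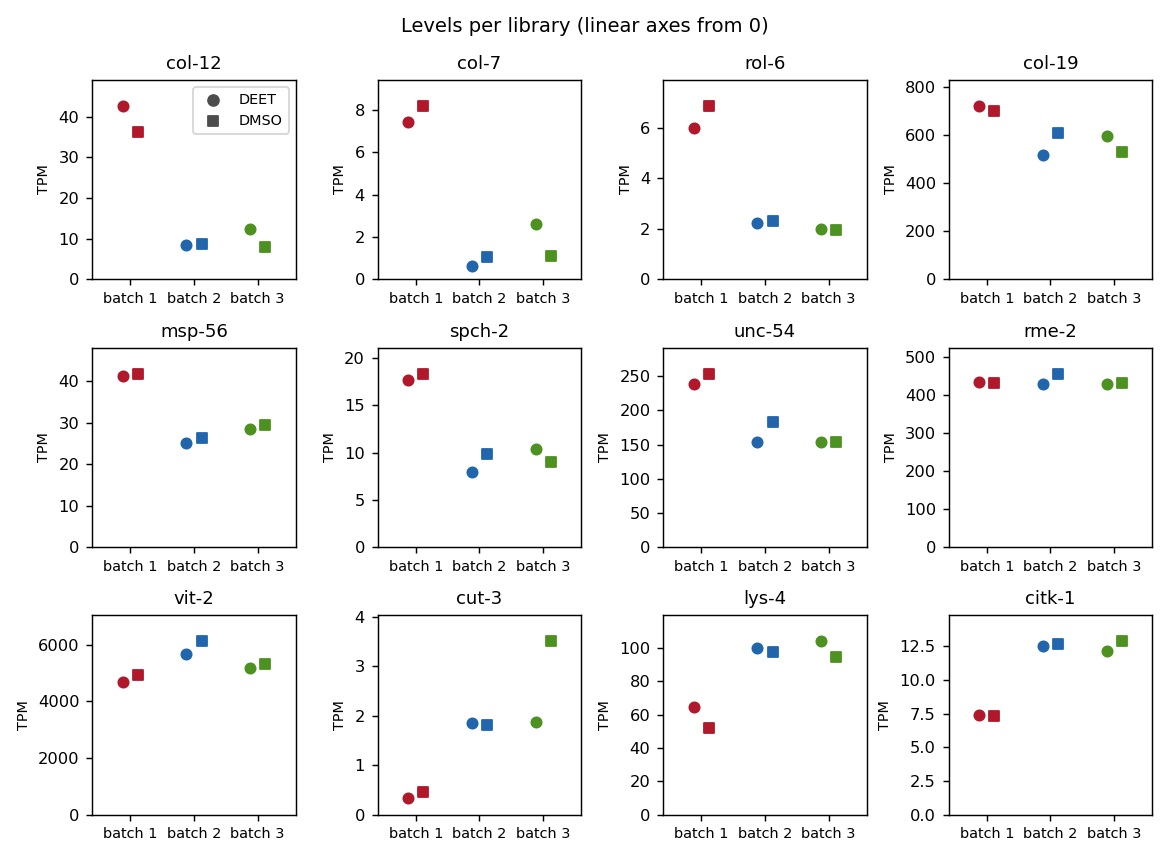
Level in TPM (linear axes from 0) of 12 genes in each of the 6 libraries, batch 1 at the left, circles for DEET and squares for DMSO. col-12, rol-6, msp-56, spch-2 and unc-54 stand higher in both batch 1 libraries, rme-2 is level and cut-3, lys-4 and citk-1 stand lower.

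Muscle genes were higher in batch 1 by a small margin. Of 27 body wall muscle markers, 5 were called higher and 0 lower, 21 lay above and 1 below, and the median was 0.28. Against batch 2 alone the median was 0.16 and against batch 3 alone 0.37, and batch 2 lay above batch 3 by a median of 0.18. The myosin heavy chain gene unc-54 had 238 and 254 TPM in batch 1, against 154 and 153 TPM with DEET and 183 and 154 TPM with DMSO in batches 2 and 3, a 1.53-fold difference. The paramyosin gene unc-15 had 232 and 249 TPM, against 158 to 180 TPM. The twitchin gene unc-22 had 9.43 and 9.92 TPM, against 6.09 to 7.80 TPM; it overlaps ZK829.9 on the opposite strand. The basement membrane collagen genes emb-9 and let-2, made largely by muscle and named here after their values were seen, were called higher at 0.45 and 0.36.

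Of 10 pharynx markers, 2 were called higher, 6 lay above and 2 below, with a median of 0.23. The pharyngeal myosin genes myo-1 and myo-2 had 3.50 and 3.32 TPM, and 3.64 and 3.77 TPM, in batch 1. In batches 2 and 3 they had 2.24 to 2.40 TPM and 2.30 to 2.81 TPM. Intestine markers had 0 of 13 called, 2 above and 0 below, a median of -0.05, and elt-2 at -0.01. Neuron markers had 0 of 25 called, 7 above and 2 below, and a median of 0.07. Gonadal sheath and spermatheca markers had 4 of 10 above and a median of 0.11, and vulva and uterus markers 1 of 10 above and a median of 0.01, with 0 called in each. The part of any of these tissues in the collagen and sperm values was not tested.

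**Figure D5:**
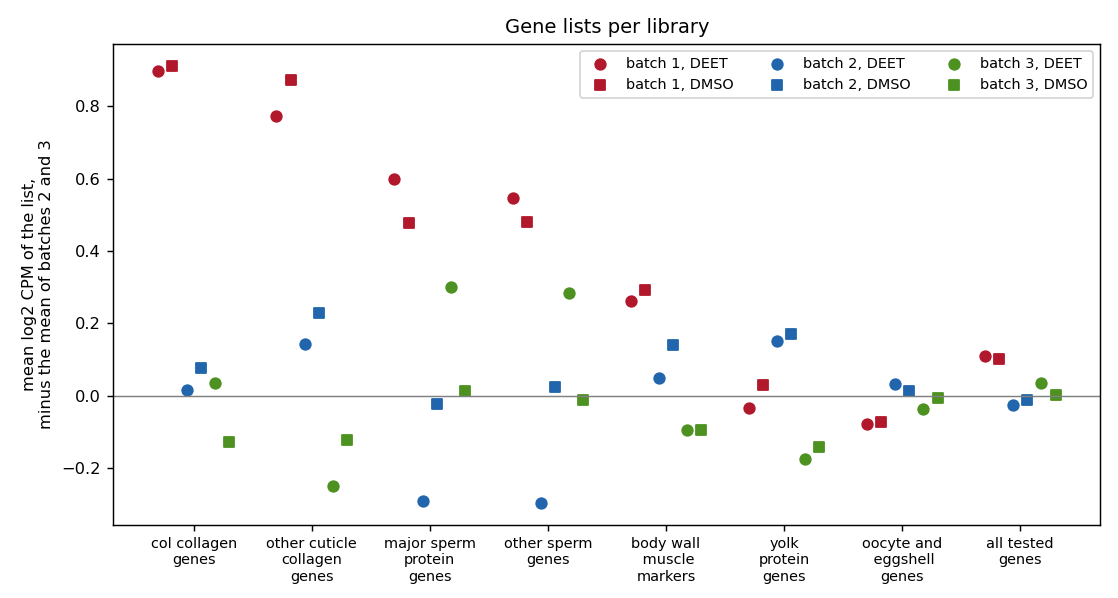
Mean log2 CPM over the members of 8 gene lists in each library, minus the mean of the 4 libraries of batches 2 and 3 (vertical axis), with batch 1 drawn first within each list. The batch 1 points stand apart for the collagens (0.77 and above), while for the sperm lists the batch 3 DEET library reaches 0.28 to 0.30 and for yolk the batch 2 libraries exceed both batch 1 libraries.

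The remaining genes named by rule were few. The cytochrome P450 gene cyp-33B1, of the oxidative enzyme family, was at 8.83 and 8.54 TPM in batch 1, against 1.74 and 2.505 TPM with DEET and 0.97 and 1.63 TPM with DMSO, a 5.19-fold difference and the largest among the genes called higher. The protein-coding gene Y47D7A.15 was at 9.65 and 12.03 TPM, against 2.19 to 3.58 TPM. The fungus-induced protein related gene fipr-22 was at 1.98 and 5.79 TPM, against 0.77 to 1.25 TPM, with a log2 fold change of 1.99 that became 2.53 without batch 1 DEET and 1.28 without batch 1 DMSO. The epidermal antimicrobial peptide gene nlp-33 was at 156 and 167 TPM, against 90.7 to 116 TPM. Of 68 antimicrobial effector genes, 2 were called higher and 3 lower, 19 lay above and 11 below.

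Genes called lower in batch 1 included lys-4, spp-3 and spp-5, a lysozyme gene and a pair of saposin-like genes. The level of lys-4 was 64.38 and 52.03 TPM in batch 1, against 94.54 to 103.8 TPM in batches 2 and 3, a log2 fold change of -0.77. The level of spp-5 was 1856 and 1858 TPM, against 2254 to 2452 TPM, and that of spp-3 was 871 and 875 TPM, against 1050 to 1167 TPM. The gene citk-1, named for citron kinase, was at 7.37 and 7.34 TPM, against 12.1 to 12.9 TPM. The P450 gene cyp-25A1 was at 3.68 and 4.22 TPM, against 5.71 to 6.99 TPM. F11D11.3 was at 5.32 and 5.19 TPM, against 10.4 to 12.99 TPM, and C27A7.8 at 50.4 and 43.6 TPM, against 74.3 to 87.2 TPM. In each the batch 1 libraries lay below all 4 others, as the naming rule required.

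The other lists held few calls. Of 62 cytochrome P450 genes, 1 was called higher and 1 lower, 16 lay above and 4 below. Of 46 histone genes, 2 were called higher, his-51 and his-4, which are named after their values were seen, and 16 lay above. The lists of 62 UDP-glucuronosyltransferase, 72 fatty acid metabolism, 112 C-type lectin, 78 ribosomal protein and 14 heat shock genes each had 0 calls, with medians from -0.02 to 0.19. On chromosome X lay 34 of the 160 genes called higher (21.2%) and 7 of the 20 called lower (35%), against 14.1% of tested genes. On chromosome III lay 6.25% of those called higher, against 15.3% of tested genes.

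Batch 4, which was set aside, is given for scale. In it col-12 was at 205 TPM with DEET and 177 TPM with DMSO, col-7 at 53.3 and 48.6 TPM, and dpy-5 at 60.95 and 74.34 TPM, each above batch 1. These collagens do not stand for the list. Summed col genes were 19060 and 19150 TPM in batch 4, against 18400 and 18200 TPM in batch 1. The abundant col-19 was at 686 and 703 TPM, against 720 and 699 TPM in batch 1. Summed major sperm proteins were 2815 and 2910 TPM there, and oocyte and eggshell genes 11450 and 9984 TPM. For unc-54 batch 4 had 199 and 237 TPM, and for lys-4 it had 301 and 347 TPM. No test of batch 4 against the other batches is given here. Batch 4 entered an alternative fit of the batch 1 comparison with all 8 libraries, as a level of its own.

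Whether DEET acted differently in batch 1 than in batches 2 and 3 is the one question that the split did not use. The interaction of batch 1 with treatment called 0 of 15680 genes (0%) in edgeR's quasi-likelihood test, with 0.663% of genes at an unadjusted p of 0.05 or less and 1 as the smallest adjusted p. In DESeq2 it also called 0, with 44 at an unadjusted p of 0.05. The fit has 1 library per treatment in batch 1 and 2 residual degrees of freedom, so a difference between the batches in the response to DEET is not shown to be absent. It left the pairs of batches 2 and 3 unmodelled, so the difference between these batches entered its residual spread. The share of 0.663% is also smaller than chance alone gives at that cut, so the absence of calls carries little weight. Without batch 3 DEET it called D2005.1 and F56A4.5.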

How the data were processed

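Polyadenylated RNA of whole worms was sequenced as paired reads on an Illumina NextSeq from Kapa mRNA HyperPrep libraries, per the labels' protocols. The submitters' processing notes name Salmon, DESeq2 and the build WBcel235, with no version or setting. The deposited count table holds whole-number counts per gene, not normalized, as the authors made it. The deposited TPM table holds TPM values from the authors, abundances per transcript length scaled to a fixed total, used here for levels. A quantifier of this kind divides reads among similar transcripts, so counts of close paralogs, such as sperm protein genes, and of overlapping genes can share reads.

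Of the gene identifiers, 46182 matched a single gene in Ensembl's annotation for WBcel235, 3 matched several and 59 none. Counts of the 6 libraries were filtered by expression, scaled by TMM and fitted with edgeR 4.0.16 (limma 3.58.1, R 4.3.3), quasi-likelihood, with batch 1 against batches 2 and 3 and treatment as terms, and Benjamini-Hochberg adjustment at 0.05. The interaction with treatment was a second fit. DESeq2 1.42.0 was an alternative. Log2 CPM used a prior count of 2. The fits were tested on simulated data. The simulated libraries were independent, with no difference between batches 2 and 3 and nothing shared within a pair. The simulation therefore checks the running of the fits, not how far a comparison of so few batches can be trusted.

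Up to 5 genes per direction over all genes and 3 per list were named, where called, with a mean of at least 50 counts, both batch 1 libraries outside the range of the other 4 and the same direction in both treatments, plus a set of marker genes for stage and tissue. This gave 47 genes; others are said to be chosen after their values were seen. The split, the 27 gene lists and the rule were chosen with earlier results of these data known. Within a pair, deviations from group means over all 8 libraries correlated at 0.429, 0.706, 0.558 and 0.896 for batches 1 to 4. Across pairs, batch 2 DEET with batch 3 DMSO gave 0.534, and batch 3 DEET with batch 2 DMSO gave 0.345. The remaining correlations of a DEET with a DMSO library of another batch were negative. The pairing is therefore taken from the labels, and for batches 2 and 3 the correlations separate it less clearly. The labels call the samples of a group biological repeats.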

Additional observations from a re-analysis of the deposited data

Results flagged for a closer look

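Within the 4 libraries of batches 2 and 3, 3 of 74 checked items had a single library far from the other 3, by Dixon's ratio of gap to range of log2 CPM at its 95% critical value; chance gives about 1 in 20 such cases. The batch 2 DMSO library was highest for unc-54, with a ratio of 0.901. It was also highest for rme-2, with a ratio of 0.839. The batch 3 DMSO library was highest for cut-3, with a ratio of 0.951. For unc-54 and cut-3, both batch 1 libraries lay outside the range of those 4, which the naming rule that both genes met required.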

How the results depend on the processing

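Counts of genes called higher and lower, 160 and 20 as reported, moved with most choices, while the medians of the col, other cuticle collagen, sperm and muscle lists stayed positive under each choice below. They were 548 and 82 with DESeq2, 439 and 39 with no low count filter, 419 and 49 without the treatment term, 740 and 59 with all 8 libraries, 42 and 3 with counts summed per batch, 1510 and 682 against batch 3 alone, and 2406 and 1203 against batch 2 alone. Leaving out 1 library at a time gave 0 to 901 higher and 0 to 61 lower. The interaction of batch 1 with DEET called 0 genes as reported and 0 with the replicate block, where its smallest adjusted p was 0.3574. Without 1 library it called 0 to 2 genes. No replicate block can be added to the batch comparison itself, since the batch number is what is compared. Of 703 values of named genes under an alternative, 691 moved by less than the spread and 12 by more. The cause of each shift was not tested. Of the called genes among them 0 changed sign, but the naming rule left little room for such a change. It required both batch 1 libraries outside the range of batches 2 and 3, and the same direction in both treatments. The absence of sign changes is therefore not read as a sign of stability. With a single batch on one side, the comparison has no replicate batch there.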
